A study of Aspergillus oryzae with 20 samples.

Results

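The comparison set 10 libraries of Aspergillus oryzae lacking the gene admB against 10 libraries bearing it, out of the 20 libraries of the series, and asked which genes shifted in the same direction whether or not its relative admA was present. Messenger RNA was measured by sequencing in 4 strains derived from the sequenced strain RIB40, with 5 libraries for each strain. The libraries lacking admB came from ΔadmB (genotype del-pyrG del-admB[pyrG+ ligD+]) and from the double deletion ΔadmAΔadmB (del-pyrG, del-admA and del-admB, with [pyrG+ ligD+]). The libraries bearing admB came from the deletion control (del-pyrG[pyrG+ ligD+]) and from ΔadmA (del-pyrG del-admA[pyrG+ ligD+]). All 4 strains thus share the pyrG deletion and its restored pyrG+ and ligD+ markers. Each was grown from conidia on moist wheat bran, the solid substrate of koji making, at 30 °C for 72 h, and the whole culture was ground before RNA was taken. The labels do not say how many transformants or flasks stand behind the 5 libraries of a strain, so the p-values rest on a spread among libraries that may be technical.

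The admA and admB genes encode members of the ADAM family, proteins named for a disintegrin and a metalloprotease domain. In animals these are membrane-anchored zinc proteases that cut the outer part off other membrane proteins and so release growth factors, receptors and adhesion molecules from the cell surface. Filamentous fungi carry relatives of them whose roles are less well known. In A. oryzae on bran, hyphae grow into and over the grain fragments, secrete large amounts of hydrolases and then form aerial hyphae, conidiophores and spores, so a bulk culture mixes several kinds of cell.

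The values were RPKM, read numbers scaled for gene length and sequencing depth, for 12074 genes, and differences are given as log2(RPKM + 1), lacking minus bearing, with admA status as a covariate. A gene was tested if 5 or more libraries had 1 RPKM or more, which kept 10652 genes and left out 1422. Of the 12074 genes 714 had a symbol in the RefSeq table used here, so most genes below are known by identifier only. The deleted gene admB was not among those symbols, and its own level was not analysed here. The partner gene admA (AO090138000114) was below the filter and was not tested. It was at 0.261, 0.208, 0.427, 3.42 and 1.05 RPKM in ΔadmB replicates 1 to 5 and at 0 in all 5 ΔadmAΔadmB libraries. It was at 0.248, 0.104, 0, 0.13 and 14.2 RPKM in control replicates 1 to 5 and at 0 in ΔadmA, except for 0.0917 RPKM in replicate 4. Apart from control replicate 5 and ΔadmB replicates 4 and 5, admA was thus under 1 RPKM also where the strain carries it. The RPKM of a library summed to 3974010 to 5401730, and 655 to 1260 genes were listed at 0. The first principal component of the log2 values held 27% of the variance and lay above 0 in 7 of 10 libraries lacking admB and in 4 of 10 bearing it. It also went with replicate number. In replicate 1 it was at -62.5 in the control, -59.6 in ΔadmB, -74.0 in ΔadmA and -50.4 in ΔadmAΔadmB. In replicate 5 it was at 83.7, 21.1, 70.4 and 81.5, in the same order. The joint comparison has no term for replicate number. On the second component, with 10.5%, ΔadmA replicates 2 to 5 lay apart, at 39.1 to 67.1, against 23.9 in ΔadmA replicate 1 and at most 12.8 in every other library.

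Without admB, 42 of 10652 genes (0.394%) passed the adjusted threshold of 0.05 in limma, 17 of them higher (0.16%) and 25 lower (0.235%). All 42 had the same sign in both backgrounds, and none passed with opposite signs. The rises ran from 0.53 to 2.53 log2 units and the falls reached 4.00, 29 genes changed by at least 1 unit and 7 by at least 2. The median difference over all tested genes was 0.01 and the median size of a difference was 0.23. The genes were not confined to weakly expressed ones, as 13 averaged less than 10 RPKM and 29 at least 10 RPKM, 11 of these at least 100 RPKM. For scale, 8457 genes averaged at least 10 RPKM, beside the 10652 tested. Whether the 42 lean toward weakly expressed genes was not tested. Only 2 of the 42 had a symbol, hdaA among the rises and prm1 among the falls. For scale, 1 gene (0.00939%) passed in the main effect of admA in the same fit, and it was not among the 42. At an unadjusted p under 0.05 there were 1350 genes (12.7%) for admB and 1009 (9.47%) for admA. In bulk cultures fewer cells of a type and less RNA per cell cannot be told apart.

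How many genes passed rested on single libraries. The count was 0 without ΔadmAΔadmB replicate 2 or without ΔadmA replicate 3, with 1114 and 1199 genes at an unadjusted p under 0.05 in limma, and it was 136 without control replicate 5, 100 without ΔadmB replicate 1 and 83 without ΔadmA replicate 1. It was 3 without ΔadmAΔadmB replicate 4 or ΔadmB replicate 3, 4 without ΔadmA replicate 5, 5 without ΔadmA replicate 2, 8 without control replicate 4, 10 without control replicate 3 and 13 without ΔadmA replicate 4. It was 16 and 19 without ΔadmAΔadmB replicates 5 and 1, and 17 without ΔadmB replicate 2 or 5. The smallest adjusted p of the full comparison was 0.019, not far below the threshold. Of 20 genes past the threshold that were followed in this way, AO090009000553, AO090023000047 and AO090026000780 lost the call, with 1 library left out, only without ΔadmAΔadmB replicate 2 or ΔadmA replicate 3, and each of the others lost it without any 1 of 4 to 16 libraries. By the step size of their RPKM values the libraries fell into 2 sets of unknown origin, the first with 7 libraries lacking and 5 bearing admB and the second with 3 and 5. Within neither set alone did a gene pass in limma, with 639 and 900 genes at an unadjusted p under 0.05. The sign of each of the 42 differences was the same without any 1 library, and within each set, which their choice from these same libraries favours.

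**Figure D1:**
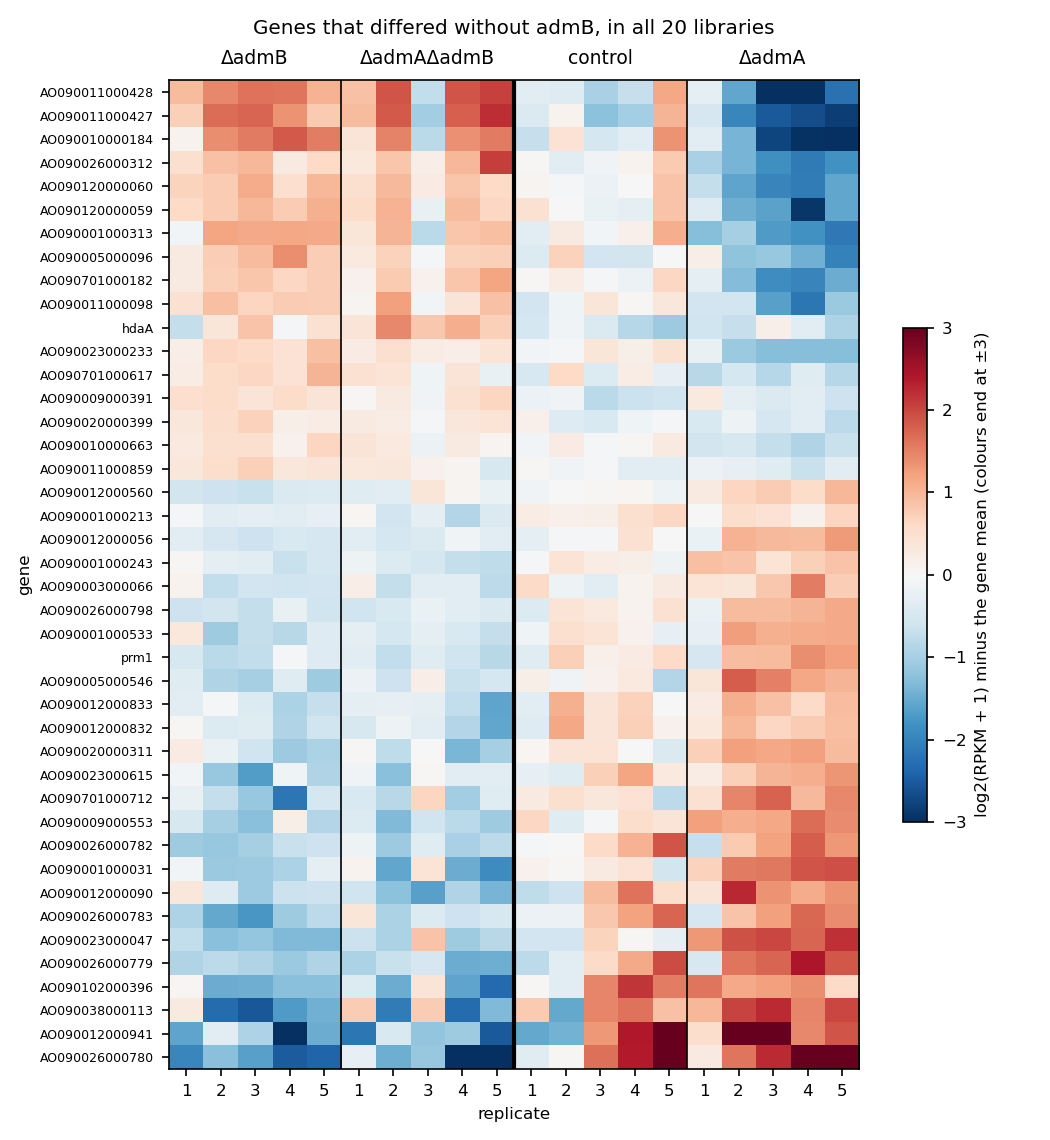
Log2(RPKM + 1) of the 42 genes that passed the test without admB (rows, by difference), as distance from the gene's mean over all 20 libraries (columns, by strain and replicate, with the libraries lacking admB left of the thick line). Red is above and blue below the mean, with colours ending at 3 log2 units, and the ΔadmA libraries 2 to 5 hold most of the deepest colours on the side bearing admB.

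The individual libraries did not all fall on their side to the same extent. In 36 of the 42 genes all 10 libraries lacking admB lay beyond the median of those bearing it, and in 32 all 10 libraries bearing admB lay beyond the median of those lacking it. The 42 were chosen for this difference, which favours high counts, and the share over all tested genes was not counted. Among libraries lacking admB, ΔadmAΔadmB replicate 3 was within the range of the libraries bearing it for 33 of the 42 genes, ΔadmAΔadmB replicate 1 for 28 and ΔadmB replicate 1 for 25, whereas ΔadmB replicate 3 was for 2. Among libraries bearing admB, control replicate 1 was within the range of those lacking it for 29 genes, control replicate 2 for 25, control replicate 5 for 21 and ΔadmA replicate 1 for 16. ΔadmA replicates 2 to 5 were for only 1 or 2 genes each. Within the control, ΔadmA and ΔadmB, replicate 1 was thus the least separated library of its strain in these genes. In ΔadmAΔadmB only replicate 3 was less separated than replicate 1.

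The 2 backgrounds, ΔadmB against control and ΔadmAΔadmB against ΔadmA, share no library, although limma pools their spread. Where admA was absent, 189 genes (1.77%) passed by themselves in limma, 89 higher (0.836%) and 100 lower (0.939%) without admB. Where admA was present none passed (0%), with a smallest adjusted p of 0.59, although 864 genes (8.11%) had an unadjusted p under 0.05. Of the 189 genes, 151 (79.9%) had the same sign where admA was present, and 33 (17.5%) had in addition an unadjusted p under 0.05 there, against 2 with the opposite sign. The 189 became 98 to 112 genes without ΔadmA replicate 3, 4 or 5 or ΔadmAΔadmB replicate 2, 4 or 5, 307 without ΔadmA replicate 1, and 1 when the spread was taken from those 10 libraries alone. Where admA was present, 1 gene passed without ΔadmB replicate 1. Over all tested genes 5981 (56.1%) had the same sign in both backgrounds, and the 2 differences correlated across genes at r = 0.18, a description since genes are not independent. An unadjusted p under 0.05 in each background came with the same sign in 124 genes (1.16%) and with opposite signs in 15 (0.141%).

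In most of the 42 genes the difference was larger where admA was absent, an inequality that did not pass its own test. The 42 were chosen on both backgrounds jointly, so their counts within each are a description. The unadjusted p was under 0.05 in each background for 33 of them, and for all 42 where admA was absent. The difference was larger where admA was absent in 38 and where it was present in 4, with a median ratio of 1.90. The interaction, which tests that inequality, passed for no gene in limma (0%), with 693 genes (6.51%) at an unadjusted p under 0.05, 16 of them among the 42, and a smallest adjusted p among the 42 of 0.23. Without ΔadmA replicate 1 it passed for 66 genes and without ΔadmA replicate 5 for 1. In 40 of the 42 genes the ΔadmA mean was the farthest of the 4 strains on the side of the libraries bearing admB, and in 2 the control mean was. The 5 libraries of each strain did not overlap in 28 of the 42 genes between ΔadmAΔadmB and ΔadmA, where 2.53% of all tested genes did not, and in 12 of the 42 between ΔadmB and control, where 1.12% did not. Without ΔadmA replicates 2 to 5 together, a choice made after their position on the second component was seen, none of the 42 passed in limma. All 42 differences kept their sign there, which their choice from these same libraries favours, and 1094 genes had an unadjusted p under 0.05.

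**Figure D2:**
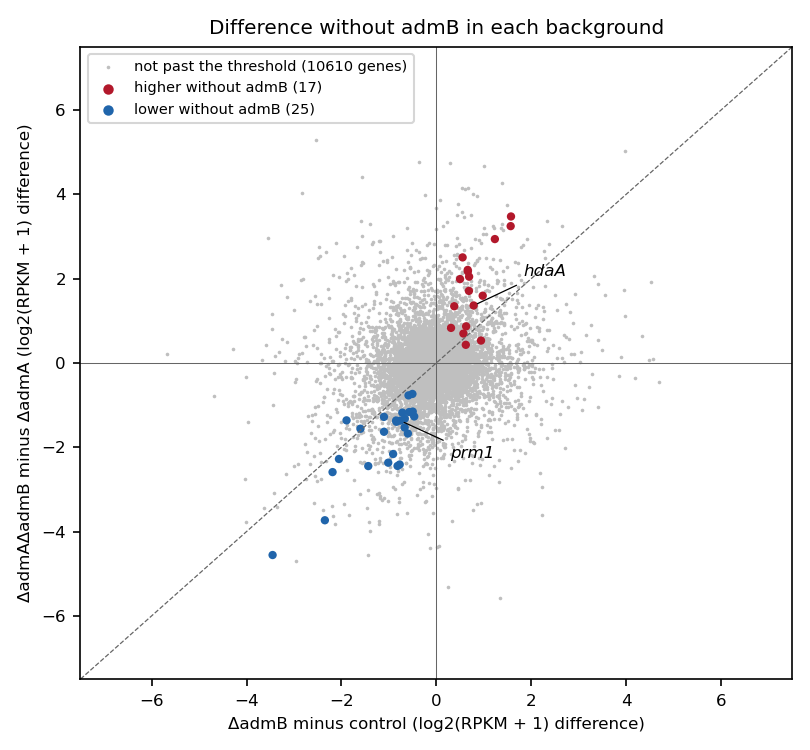
Difference without admB in log2(RPKM + 1) where admA was present (ΔadmB minus control, x axis) and where it was absent (ΔadmAΔadmB minus ΔadmA, y axis) for all 10652 tested genes, with the 17 higher (red) and 25 lower (blue) genes marked. All 42 lie in the quadrants of equal sign and 38 lie beyond the dashed line of equal differences on the side of the y axis.

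The rise with the highest expression was that of hdaA (AO090003001321). Its symbol is that of a class II histone deacetylase, an enzyme that takes acetyl groups off histones and that in Aspergillus nidulans is known as a repressor of some secondary metabolite clusters. It was at 1340, 2847, 4005, 2166 and 3023 RPKM in ΔadmB replicates 1 to 5, against 1526, 2055, 1632, 1219 and 1041 RPKM in the control. It was at 2862, 5973, 3880, 4656 and 3632 RPKM in ΔadmAΔadmB replicates 1 to 5, against 1447, 1370, 2470, 1739 and 1157 RPKM in ΔadmA. The double deletion stood above ΔadmA in every library, while ΔadmB replicate 1 lay within the control range. The difference was 1.08 log2 units (SE 0.21, limma adjusted p = 0.035), 0.79 where admA was present and 1.37 where it was absent. It was 1.16 within the first and 1.15 within the second library set (adjusted p = 0.69 and 0.49 with 12 and 8 libraries), and 0.96 without ΔadmA replicates 2 to 5 (adjusted p = 0.39). Over 37 alternatives the difference stayed between 0.96 and 1.20, and the adjusted p, between 0.0055 and 0.69, was no longer under the threshold in 16. Among these, leaving out control replicate 3 or 4, ΔadmAΔadmB replicate 2, 4 or 5, any of ΔadmA replicates 2 to 5, or ΔadmB replicate 2, 3 or 5 gave differences of 1.00 to 1.14 and adjusted p-values of 0.051 to 0.081.

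The gene prm1 (AO090003001100) fell. In Saccharomyces cerevisiae Prm1 is a membrane protein that acts when the plasma membranes of mating cells fuse, and fungi with branching hyphae carry a relative. It was at 11.3, 8.77, 9.29, 15.5 and 12.1 RPKM in ΔadmB replicates 1 to 5, against 12.3, 26.9, 17.9, 19.4 and 24.6 RPKM in the control. It was at 12.8, 9.19, 12.2, 10.3 and 8.68 RPKM in ΔadmAΔadmB replicates 1 to 5, against 11, 31.6, 32.1, 43.8 and 39.4 RPKM in ΔadmA. All 10 libraries lacking admB were therefore at 15.5 RPKM or less, a level that only control replicate 1 and ΔadmA replicate 1 shared among those bearing it. The difference was -1.06 (SE 0.22, limma adjusted p = 0.04), -0.76 where admA was present and -1.37 where it was absent. It was -0.92 and -1.36 within the first and the second library set (adjusted p = 0.76 and 0.38), and -0.58 without ΔadmA replicates 2 to 5 (adjusted p = 0.47). Its adjusted p ranged from 0.0034 to 0.76 and was over the threshold in 20 of 37 alternatives. Among these, leaving out any of control replicates 2 to 4, ΔadmAΔadmB replicate 1, 2, 4 or 5, any of ΔadmA replicates 2 to 5, or ΔadmB replicate 2, 3 or 5 gave differences of -1.09 to -0.97 and adjusted p-values of 0.055 to 0.094.

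The smallest p-value of the comparison, and the largest fall, were those of genes without a symbol. AO090009000553, named here after its p was seen, was at 45.1, 31.1, 26, 71.9 and 33.8 RPKM in ΔadmB, against 97.4, 48.6, 61.2, 91.1 and 83.6 RPKM in the control. It was at 47, 24.5, 41.7, 35.5 and 29.6 RPKM in ΔadmAΔadmB, against 149, 136, 142, 204 and 172 RPKM in ΔadmA. The double deletion and ΔadmA were far apart, and only ΔadmB replicate 4 reached into the control range. The difference was -1.53 (SE 0.23, limma adjusted p = 0.019), and it passed in 32 of 37 alternatives. It was -0.91 where admA was present and -2.16 where it was absent, with an unadjusted interaction p of 0.0035 in limma (adjusted p = 0.47). Among the libraries bearing admB, ΔadmA averaged 161 RPKM and the control 76.4 RPKM.

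AO090026000780 fell by 4.00 log2 units (SE 0.63, limma adjusted p = 0.019), more than any other gene that passed. It was at 11.1, 18.8, 14.2, 7.3 and 7.87 RPKM in ΔadmB, against 35.3, 46.8, 146, 245 and 665 RPKM in the control. It was at 38.5, 16, 20.5, 3.06 and 2.13 RPKM in ΔadmAΔadmB, against 56, 142, 220, 1284 and 568 RPKM in ΔadmA. Within each background the 5 libraries of a strain did not overlap with those of the other, but the libraries bearing admB spread widely, 35.3 to 1284 RPKM. The difference was -3.45 where admA was present and -4.56 where it was absent, -4.70 and -2.95 within the library sets (adjusted p = 0.66 and 0.39), and it passed in 32 of 37 alternatives.

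Further falls were of genes without a symbol. AO090012000941, taken for its level, fell by 3.04 (limma adjusted p = 0.046), with 29.3 to 268 RPKM (median 135) in libraries lacking admB, against 116 to 5128 RPKM (median 1090) in those bearing it. Control replicates 1 and 2, at 116 and 126 RPKM, lay among the libraries lacking admB, while control replicates 3 to 5 and all ΔadmA libraries lay above them. It had the highest mean over all libraries of the genes that fell. Of the falls picked by size, AO090038000113 fell by 2.39 (adjusted p = 0.04), with a range of 88 to 882 RPKM and a median of 176 in libraries lacking admB, against 178 to 2465 RPKM and a median of 1440 in those bearing it. AO090102000396 fell by 2.16 (adjusted p = 0.019), with 3.53 to 28.8 RPKM (median 7.94) against 17.4 to 99.6 RPKM (median 56). AO090023000047 fell by 1.69 (adjusted p = 0.019), with 2.65 to 15.7 RPKM (median 3.56) in libraries lacking admB. It had 5.15 to 41.1 RPKM (median 17.7) in those bearing it. By strain it averaged 3.16 ± 0.773 RPKM in ΔadmB, 6.37 ± 5.23 in ΔadmAΔadmB, 7.76 ± 3.50 in the control and 32.5 ± 7.22 in ΔadmA (SD, n = 5 each).

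Some of the 42 genes lay next to each other, a property that the comparison had not used. Among the 3 genes on either side in the order of the reference table, 10 of the 42 had another gene that passed in the same direction, and 32 had none. How many would have one if the 42 lay at random in the gene order was not computed, so the count is a description. The longest run was AO090026000779, AO090026000780, AO090026000782 and AO090026000783, all lower without admB. Its members differed in level, which RPKM allows to be compared per length of gene. AO090026000779 had 0.191 to 1.36 RPKM (median 0.772) in libraries lacking admB, against 0.923 to 16.8 RPKM (median 7.71) in those bearing it, a difference of -1.94 (SE 0.36, adjusted p = 0.028). AO090026000782 had 5.59 to 12 RPKM (median 6.88) against 8 to 52.8 RPKM (median 26.3), a difference of -1.58 (SE 0.28, adjusted p = 0.024). AO090026000783 had 5.74 to 27.8 RPKM (median 11.4) against 14.7 to 74.8 RPKM (median 45.2), a difference of -1.63 (SE 0.30, adjusted p = 0.025). These 3 overlapped between the groups in few libraries, among which control replicate 1 or ΔadmA replicate 1 was the lowest of those bearing admB.

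The genes inside and beside that run were not past the threshold. AO090026000781, within it, had a median of 39.8 RPKM without admB and of 596 RPKM with it, and a difference of -2.93 (adjusted p = 0.21), with values from 1.78 to 270 RPKM in libraries lacking admB and from 9.71 to 1036 RPKM in those bearing it. AO090026000778, before it, had a difference of -1.88 (adjusted p = 0.25). In AO090026000782 and AO090026000783 the difference was of like size in both backgrounds, -1.60 and -1.89 where admA was present and -1.56 and -1.36 where it was absent, which makes them exceptions to the larger difference without admA. In the control, the values of the 4 genes of the run were all lowest in replicate 1 and all highest in replicate 5. In ΔadmA they were all lowest in replicate 1 and all highest in replicate 4.

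**Figure D3:**
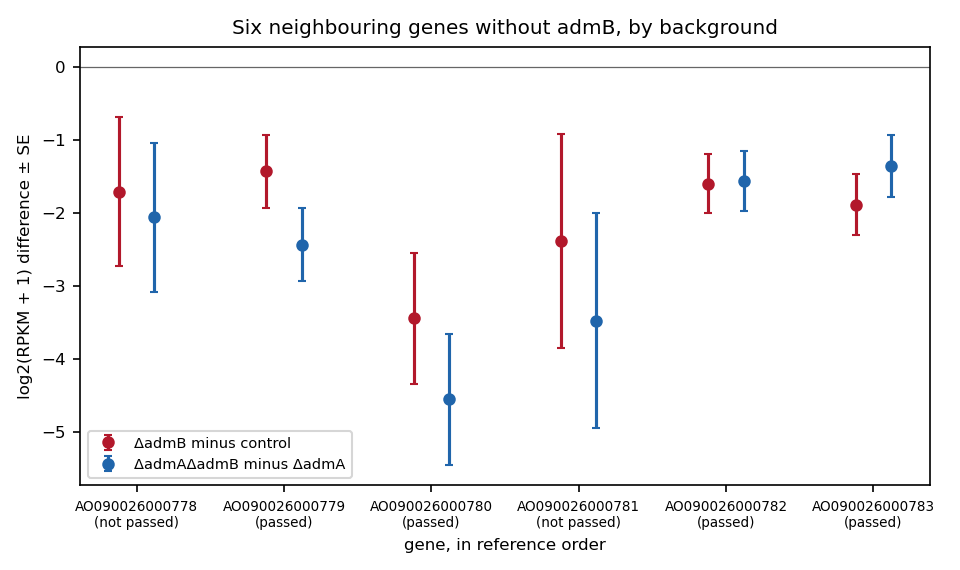
Difference without admB (log2(RPKM + 1), points, with limma's SE as bars) in 6 neighbouring genes in reference order, where admA was present (ΔadmB minus control, red) and absent (ΔadmAΔadmB minus ΔadmA, blue). All 12 points lie below 0, and the 4 genes that passed in the joint comparison have the smaller bars relative to their differences.

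Among the rises, neighbours also came in pairs. AO090011000427 was at 121, 235, 249, 188 and 126 RPKM in ΔadmB, against 53.7, 79.1, 30.5, 35.5 and 148 RPKM in the control. It was at 142, 262, 34.8, 255 and 345 RPKM in ΔadmAΔadmB, against 51, 17.9, 11.9, 10.7 and 9.38 RPKM in ΔadmA. Control replicate 5 lay inside the ΔadmB range and ΔadmAΔadmB replicate 3 inside the ΔadmA range. The difference was 2.41 (SE 0.45, limma adjusted p = 0.027), 1.57 where admA was present and 3.25 where it was absent.

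Its neighbour AO090011000428 was at 52.1 to 365 RPKM (median 255) in libraries lacking admB, against 4.32 to 197 RPKM (median 48.5) in those bearing it. It differed by 2.53 (SE 0.49, adjusted p = 0.031), the largest rise, and its low and high libraries were the same, with ΔadmAΔadmB replicate 3 lowest of those lacking admB and control replicate 5 highest of those bearing it. AO090120000060 was at 20.4 to 38.3 RPKM (median 28.7) against 3.22 to 32 RPKM (median 12.6), a difference of 1.44 (SE 0.25, adjusted p = 0.024). Next to it, AO090120000059 was at 25.2 to 62.5 RPKM (median 50.5) against 3.01 to 54.3 RPKM (median 23.2), a difference of 1.42 (SE 0.30, adjusted p = 0.046). Among the libraries bearing admB, AO090120000060 averaged 19.8 ± 6.92 RPKM in the control and 5.42 ± 2.77 RPKM in ΔadmA (SD, n = 5 each). Its difference was 0.66 where admA was present and 2.21 where it was absent. The unadjusted p of that inequality, the interaction, was 0.00038 (adjusted p = 0.23). Another pair, AO090012000832 and AO090012000833, was lower without admB, by 1.12 and 1.10 (adjusted p = 0.028 for each). Their medians without admB were 4.64 and 4.41 RPKM, against 11.2 and 9.73 RPKM with it.

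The 2 remaining rises picked by size stood alone in the gene order. AO090010000184 was at 18.4 to 122 RPKM (median 92.2) in libraries lacking admB, against 2.5 to 85.7 RPKM (median 21.6), a difference of 2.09 (SE 0.45, adjusted p = 0.049) that was past the threshold in 10 of 37 alternatives. AO090026000312 was at 6.25 to 25.8 RPKM (median 9.51) against 0.467 to 9.9 RPKM (median 3.14), a difference of 1.53 (SE 0.31, adjusted p = 0.042). AO090026000312 was among the least even between the backgrounds, at 0.56 where admA was present and 2.51 where it was absent, with an unadjusted interaction p of 0.0004 (adjusted p = 0.23).

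**Figure D4:**
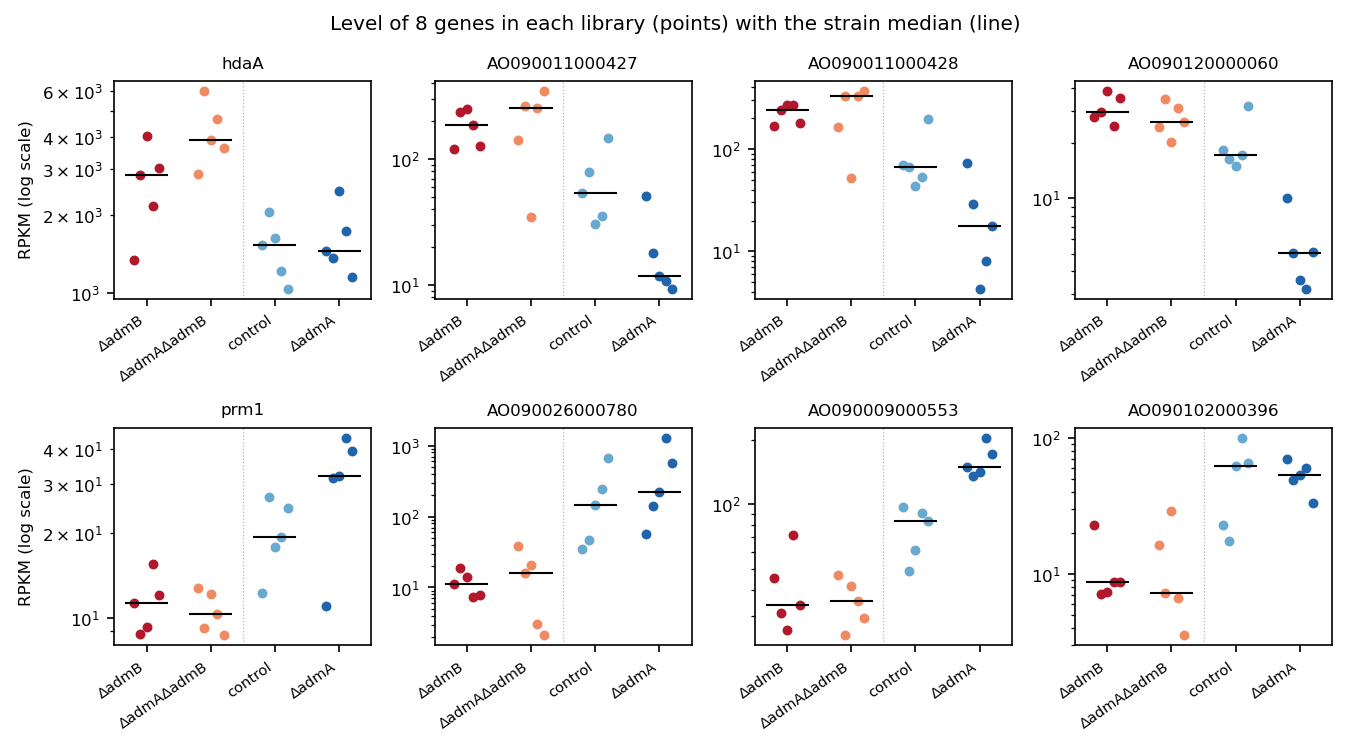
RPKM on a log scale in each library (points) and strain median (lines) for 4 genes that were higher (top row) and 4 that were lower (bottom row) without admB, with ΔadmB and ΔadmAΔadmB left of the dotted line and control and ΔadmA right of it. In hdaA and AO090102000396 the control and ΔadmA lie at similar levels, while in AO090120000060 and AO090009000553 ΔadmA lies farther from the strains lacking admB than the control does.

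The other 22 genes that passed, without a symbol and outside the rule for naming, comprised 10 rises of 0.53 to 1.37 and 12 falls whose sizes ran from -0.62 to -1.63. Median levels in libraries lacking admB were 2.26 to 284 RPKM among these rises and 0.523 to 89.2 RPKM among these falls. The following 3 examples were chosen after the values were seen. AO090020000399 was at 92.5 to 152 RPKM (median 117) in libraries lacking admB, against 53.9 to 105 RPKM (median 72.6), and differed by 0.57 where admA was present and 0.70 where it was absent (jointly 0.64, adjusted p = 0.024). AO090001000213 was at 19.2 to 37.4 RPKM (median 28.6) against 35.8 to 57.1 RPKM (median 45.7), with differences of -0.58 and -0.77 (jointly -0.68, adjusted p = 0.024). AO090009000391 was at 198 to 331 RPKM (median 284) against 121 to 260 RPKM (median 163), and here the difference was larger where admA was present, 0.94, than where it was absent, 0.53. In all 3 the ranges of the groups overlapped.

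At the threshold itself, AO090001000533 passed with a difference of -0.99 (adjusted p = 0.049) and AO090005000572 did not with 0.75 (adjusted p = 0.05 after rounding). No gene had all 10 libraries lacking admB above all 10 bearing it (0%), and 1 had them all below (0.00939%), AO090001000492, which was singled out for that. It was at 3.75 to 7.08 RPKM in libraries lacking admB, against 7.15 to 107 RPKM in those bearing it, and with a difference of -1.50 it did not pass (adjusted p = 0.065). Its values in the control, 7.15 to 23.9 RPKM, nearly touched those lacking admB.

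Of the genes with a symbol just outside the threshold, 4 were looked at after their p-values were seen. The gene cdc31 (AO090003001106), centrin of the spindle pole body in yeast, had 41.2 to 76.3 RPKM (median 59.9) in libraries lacking admB, against 26.6 to 46.2 RPKM (median 42.3), a difference of 0.58 (adjusted p = 0.056). The gene bna4 (AO090005001567), the kynurenine monooxygenase of NAD synthesis from tryptophan, had 111 to 450 RPKM (median 219) against 28.2 to 176 RPKM (median 120), a difference of 1.23 (adjusted p = 0.057). In fmaF (AO090010000026) the medians were 40.5 RPKM without and 173 RPKM with admB, a difference of -1.85 (adjusted p = 0.058). All 4 had the same sign in both backgrounds, and unlike most of the 42 genes, cdc31 differed by more where admA was present, 0.75 against 0.42. The gene erg4A (AO090026000130), a reductase of the last step of ergosterol synthesis, had medians of 108 and 38.6 RPKM, a difference of 1.23 (adjusted p = 0.085), 1.33 and 1.14 in the 2 backgrounds.

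The gene erg5 (AO090003000954), sterol desaturase of the same pathway, had a joint difference of -2.11 that did not pass (adjusted p = 0.44). It was at 35.9, 0.328, 4.87, 14.8 and 6.36 RPKM in ΔadmB, against 12.5, 0.922, 9.22, 0.205 and 0 RPKM in the control, a difference of 1.34. It was at 0.365, 0.585, 45.1, 0.321 and 0.552 RPKM in ΔadmAΔadmB, against 18.6, 118, 295, 218 and 322 RPKM in ΔadmA, a difference of -5.57. The ΔadmA libraries were thus high, and of the double deletion only replicate 3 lay within their range. The unadjusted interaction p was 0.00042 (adjusted p = 0.23). The marker gene pyrG (AO090011000868), orotidine 5'-phosphate decarboxylase of pyrimidine synthesis, had 13.6 to 53.8 RPKM (median 41.8) in libraries lacking admB, against 6.83 to 59.6 RPKM (median 32.5), and did not pass (0.30, adjusted p = 0.8).

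Gene lists by symbol showed few genes past the threshold, and here hdaA and prm1 were the only ones. No list was tested as a set, and the share of all tested genes with a difference below 0 was not counted. Counts of signs within a list are thus a description. In the list of histone deacetylases and chromatin factors, 1 of 20 tested members rose and none fell, with 13 differences above 0 and 7 below and a median of 0.09, against 0.01 over all tested genes. Beside hdaA, the deacetylase gene rpdA had a difference of 0.16 (adjusted p = 0.49). The gene set2, a histone H3 lysine methyltransferase, had a difference of 1.56 (adjusted p = 0.22), with 2.91 where admA was present and 0.21 where it was absent. In the list of cell and membrane fusion and MAP kinase signalling, prm1 fell and none of the other 12 of 13 tested members passed. Of the 13, 12 joint differences were below 0, but only 7 members were below 0 in both backgrounds. The median of the 13 was -0.14. Sizes were mostly small, for example -0.20 for the cell wall GTPase gene rho1 and -0.24 for the polarity GTPase gene cdc42.

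Conidiation served as the marker list for another kind of cell in the culture. None of its 14 tested members passed, against 0.394% of all genes. At an unadjusted p under 0.05 in limma there were 2, vosA and esdC, against 12.7% of all tested genes. Of the 14, 12 differences were below 0, 11 of them in both backgrounds, and the median was -0.41, with -0.53 where admA was present and -0.30 where it was absent. The regulator brlA, which starts conidiophore development, had 0.476 to 34.6 RPKM (median 1.49) in libraries lacking admB, against 1.6 to 90.2 RPKM (median 3.44), a difference of -0.80 (adjusted p = 0.71). The pigment gene ayg1 ran from 0.904 to 1528 RPKM without and from 1.16 to 1745 RPKM with admB, so libraries of both groups spanned nearly the whole range. The levels of the 14 members summed to 3016 to 9054 RPKM (median 5983) in libraries lacking admB, against 4578 to 12014 RPKM (median 8380) in those bearing it. Most of that sum came from steA, flbB and esdC. Their means were 2600, 1160 and 957 RPKM without admB, against 4238, 1220 and 1422 RPKM with it. The sum therefore says little about weakly expressed members such as brlA. The differences above 0 were those of wetA (0.18) and pksP (0.08). None of the 14 was at 0 in any library. The part of conidiation in the differences of the 42 genes was not tested.

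The lists for the cell surface and for degradation of plant material had medians below 0 and no member past the threshold. In cell wall synthesis, with 18 tested members, 13 differences were below 0, 11 of them in both backgrounds (median -0.27). The smallest p was that of the chitin synthase gene chsG, which had 371 to 1416 RPKM (median 592) in libraries lacking admB, against 741 to 1562 RPKM (median 1133), a difference of -0.72 (adjusted p = 0.15). The chitin synthase genes chsF and csmB followed with -0.39 and -0.38 (adjusted p = 0.2 and 0.24). In plant polysaccharide degradation, with 10 tested members, 7 differences were below 0 in both backgrounds (median -0.72). There cbhC, a cellobiohydrolase, had medians of 1915 RPKM without and 4686 RPKM with admB (-1.27, adjusted p = 0.44), and xgeA, a xyloglucan endoglucanase, 64.1 and 134 RPKM (-0.93, adjusted p = 0.31). The beta-xylosidase gene xlnD and the alpha-glucuronidase gene aguA had differences above 0, 0.32 and 0.70 (adjusted p = 0.87 and 0.64).

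The 13 tested members of the secondary metabolism list had a median of -0.28, which was 0.08 where admA was present and -1.04 where it was absent, and none passed. In gliI, named after the gliotoxin cluster of Aspergillus fumigatus, no library lacking admB exceeded 0.379 RPKM, while those bearing it ran from 0 to 18.5 RPKM (-1.35, adjusted p = 0.17). Among the latter, the control was at 0.767, 0, 0, 3.77 and 0 RPKM in replicates 1 to 5, and ΔadmA at 1.05 to 18.5 RPKM. The difference was -0.53 where admA was present and -2.17 where it was absent. In gliG the 2 backgrounds had opposite signs, 2.79 where admA was present and -1.04 where it was absent. Autophagy had 4 tested members, all below 0 jointly and 2 of them in both backgrounds. Their median was -0.30, with -0.68 where admA was present and 0.01 where it was absent. Iron and siderophore genes had 10 of 12 below 0 jointly and 6 in both backgrounds (median -0.19).

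The remaining lists had medians close to that of all genes and no member past the threshold. Medians were 0.11 in central carbon metabolism (11 tested), 0.10 in translation (15), 0.06 in oxidative stress (9), 0.05 in ribosome biogenesis (22) and in ergosterol synthesis (14), and 0.02 in protein folding and secretion stress (23). Translation had a median of 0.38 where admA was present and -0.09 where it was absent. The 3 lists with the fewest members had medians of 0.19 for starch degradation (3 tested), 0.17 for phosphate (2) and -0.03 for proteases (4). Enzymes of starch and protein breakdown, for which koji is grown, are thus hardly covered by symbols in the table.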

How the data were processed

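Each of the 20 deposited tables lists 12074 genes with RPKM values, per the file headers; per the submitters' processing notes the authors used TopHat2 2.0.9, Cufflinks 2.1.1, CASAVA 1.8.2 and FastQC 0.10.1; their roles, the build and the gene models are matters not given in the sources used here. RPKM are not counts, so the depth in reads is unknown and no count model was fitted. Symbols and gene order came from the RefSeq table of assembly ASM18445v3. Values were taken as log2(RPKM + 1), a scale that understates changes of low genes, and fitted in R 4.3.3 by limma 3.58.1 (lmFit and trended eBayes, two-sided, Benjamini-Hochberg over 10652 genes): admB and admA status for the joint comparison, 1 mean per strain for each background and the interaction. The procedure was tested on simulated data. It recovered 44 of 100 genes changed there by 1 log2 unit and 72 of 100 changed by 2, with 3 false calls. The genes named were those with a symbol, the 5 largest rises and falls in which at least 9 of 10 libraries of each group lay beyond the other's median, runs of at least 3 neighbours, the most abundant gene in each direction and a few fixed symbols. The comparison, the gene lists and the fixed symbols were chosen with earlier results of these data known.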

Additional observations from a re-analysis of the deposited data

Results flagged for a closer look

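Among 124 groups of 5 libraries, 4 for each of 31 named genes, 15 held a library far from the other 4 by Dixon's criterion (gap over range above 0.71), where chance flags about 1 in 20 groups, or 6.2. Of these, 4 were ΔadmA replicate 1 lying below the other ΔadmA libraries. It was at 11 RPKM in prm1 against 31.6 to 43.8 RPKM in the others (0.759), at 0.786 against 3.45 to 4.03 RPKM in AO090001000533 (0.882), at 4.15 against 156 to 238 RPKM in AO090026000778 (0.891) and at 1.38 against 9.16 to 16.8 RPKM in AO090026000779 (0.722). ΔadmAΔadmB replicate 3 lay above the other double deletion libraries in erg5, at 45.1 against 0.321 to 0.585 RPKM (0.949), and in AO090023000047, at 15.7 against 3.4 to 4.92 RPKM (0.777).

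ΔadmB replicate 1 was high in AO090102000396, at 22.8 against 7.1 to 8.66 RPKM (0.836), and low in AO090010000184, at 35.9 against 89.3 to 122 RPKM (0.743). ΔadmB replicate 2 was high in AO090026000778, at 37.7 against 3.76 to 7.31 RPKM (0.734). Control replicate 5 was high in AO090120000060, at 32 against 15.1 to 18.3 RPKM (0.748), and in admA, at 14.2 against 0 to 0.248 RPKM (0.919). Control replicate 2 was low in AO090038000113, at 178 against 894 to 1617 RPKM (0.731).

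The marker gene pyrG was low in ΔadmB replicate 4, at 14.9 against 38.7 to 53.8 RPKM (0.739), and in control replicate 5, at 6.83 against 36.3 to 49.8 RPKM (0.835). In ΔadmA, admA was at 0.0917 RPKM in replicate 4 and at 0 in the other 4 libraries (1.000). The cause of these deviations was not tested.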

How the results depend on the processing

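Of 37 alternatives, the count of 42 genes for admB stayed within 1.5 times under other pseudocounts, no filter, other scalings, library set as a covariate, robust variance and no trend. It was 22 with a mean of at least 10 RPKM (fewer genes tested), 13 without the admA covariate, 126 with 1 mean per strain, 0 in library set 1 and 0 in library set 2 (fewer libraries), 617 with sample quality weights, and, chosen after seeing the data, 361 with the first principal component as a covariate and 0 without ΔadmA replicates 2 to 5. Leaving out 1 library gave 0 to 136. With quantile normalization 50% of the genes past the threshold were higher. The replicate block gave 80 genes, 36 of them among the 42. Same-numbered libraries of the groups compared deviated together at correlations of -0.22 to 0.38, not all over 0.1, and the labels tie no number to a shared batch, so the numbers were not taken as pairs. As a hint from the data, not the design, 11 of 20 libraries correlated best with one of their own number. The count to be had by chance was not computed. On the first principal component all replicate 1 libraries lay at -74.0 to -50.4 and all replicate 5 libraries at 21.1 to 83.7. Replicates 2 to 4 lay on both sides of 0. Whether libraries of the same number share a batch was not tested. Where admA was absent, 189 genes became 122 with a mean of at least 10 RPKM, 289 with the block, 2 and 7 in sets 1 and 2, 1 with the spread of the 10 libraries alone, 370 with weights, 520 with the component, 18 without ΔadmA replicates 2 to 5, and 98 to 307 without 1 library. Where it was present, 0 became 2 and 11 in sets 1 and 2, 1 with the component and 0 to 1 without 1 library. The interaction's 0 became 3 with the set as a covariate, 1 and 5 in sets 1 and 2, 15 with weights, 13 with the component, 11 without ΔadmA replicates 2 to 5 and 0 to 66 without 1 library. The 1 gene for admA became 0 without the filter, with the block, in set 1 and without ΔadmA replicates 2 to 5, 2 in set 2, 11 with weights, 2 with the component and 0 to 2 without 1 library. The causes were not tested. Set 2 holds only replicate 2 of ΔadmB, beside control replicates 2 to 4. Its counts where admA was present and for the interaction thus rest on a single ΔadmB library. Leaving out ΔadmA replicates 2 to 5 likewise leaves only replicate 1 of that strain where admA was absent and in the interaction. A strain with a single library has no spread of its own, so no conclusion is drawn from the counts of these fits. All 42 differences kept their direction wherever they were tested, which their choice from these same libraries favours. Without ΔadmA replicates 2 to 5, erg5 (0.32) and pyrG (-0.08), which had not passed in the full comparison, reversed. The marker gene pyrG passed in 1 of the 37 alternatives (limma adjusted p = 0.043). The depth in reads is unknown, so no limit from counting can be given.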
